A study of Mus musculus with 6 samples.

Results

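Acot1, Ehhadh, Acaa1b, Vnn1, Cyp4a10, Pdk4, Creb3l3 and Etfdh are genes that the nuclear receptor PPAR alpha is known to induce in liver, and they were followed here in the livers of mice without Nrg4. They were taken as a set of PPAR alpha targets that are not themselves enzymes of the mitochondrial beta-oxidation spiral, and every probe set annotated to exactly 1 of these symbols was used. Each of the 8 genes had 1 such probe set, so that 8 of 28898 probe sets with a single symbol, and 8 of 17097 genes, make up the set. Only some of these genes belong to peroxisomes: Ehhadh and Acaa1b encode peroxisomal enzymes, while the products of the other members work in the cytosol, the mitochondrion, the endoplasmic reticulum, the nucleus or at the cell surface.

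The Nrg4 knockout group and the wild-type group each held 3 arrays. Each array carried an independent pool of liver RNA from mice labelled as C57BL/6. The mice of both groups were given a high-fat diet from 3 months of age for 8 weeks and were sampled under random feeding, without a fast. The labels name neither the number of mice in a pool nor how the knockout allele was made, and a difference between pools is therefore the unit of error here. Values are log2 signals from RMA (robust multi-array average), so that a difference of 1 is a doubling, and levels of different genes are not compared because probes differ in brightness.

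PPAR alpha binds DNA with the retinoid X receptor and is activated by fatty acids. In the fasted or fat-loaded liver it turns on genes that take up, activate, oxidise and export fatty acids, and in rodents it also enlarges the peroxisome compartment. Its targets are therefore often read as a gauge of how much fatty acid the liver is burning, although several of them also answer to insulin, glucocorticoids and other factors.

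RefSeq promoter windows (assembly GRCm38.p6) of 250 bases before and 50 bases after an annotated start were held for 6 of the 8 members, in 7 windows because Creb3l3 had more than 1. Vnn1 and Cyp4a10 had no entry. The windows of the 3 members whose values did not overlap between the genotypes, and the only member window with the nuclear receptor core AGGTCA, are shown because the known receptor motif can be looked for in them. They are written 5′ to 3′ along the gene, and capitals mark CCAAT (or ATTGG, the same box on the other strand) and the core AGGTCA.
Acot1, chr12:84009252-84009551, plus strand: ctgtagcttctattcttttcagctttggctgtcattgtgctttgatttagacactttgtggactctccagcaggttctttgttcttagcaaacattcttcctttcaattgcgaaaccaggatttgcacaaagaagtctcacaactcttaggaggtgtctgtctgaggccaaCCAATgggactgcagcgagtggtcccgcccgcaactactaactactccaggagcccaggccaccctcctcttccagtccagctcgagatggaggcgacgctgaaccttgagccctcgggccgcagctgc
Ehhadh, chr16:21787785-21788084, minus strand: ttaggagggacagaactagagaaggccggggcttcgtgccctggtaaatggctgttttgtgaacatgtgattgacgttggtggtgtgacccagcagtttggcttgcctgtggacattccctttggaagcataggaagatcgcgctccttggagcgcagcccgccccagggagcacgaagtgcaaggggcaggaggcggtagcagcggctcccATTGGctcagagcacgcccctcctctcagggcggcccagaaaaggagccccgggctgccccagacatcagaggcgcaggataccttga
Acaa1b, chr9:119157044-119157343, minus strand: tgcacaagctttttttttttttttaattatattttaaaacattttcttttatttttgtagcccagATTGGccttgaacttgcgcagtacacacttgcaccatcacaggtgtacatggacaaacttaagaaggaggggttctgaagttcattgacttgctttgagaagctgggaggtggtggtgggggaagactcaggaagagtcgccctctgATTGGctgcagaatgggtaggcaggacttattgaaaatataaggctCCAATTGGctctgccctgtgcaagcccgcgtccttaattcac
Creb3l3, chr10:81092542-81092841, minus strand: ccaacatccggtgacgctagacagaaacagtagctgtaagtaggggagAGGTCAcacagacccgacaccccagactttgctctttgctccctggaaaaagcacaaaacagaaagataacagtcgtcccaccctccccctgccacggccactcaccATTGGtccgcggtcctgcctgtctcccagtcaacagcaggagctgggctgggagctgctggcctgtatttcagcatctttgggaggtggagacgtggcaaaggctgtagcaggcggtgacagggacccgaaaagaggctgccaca

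The motif of PPAR alpha with its partner, searched on both strands as AGGNCANAGGNCA, had no match in any of the 7 member windows, and 0.381% of all 32851 windows of this length held one. The core AGGTCA stood in 1 member window, that of Creb3l3 printed above, from base 49 of the window, and 16.3% of all windows held it. CCAAT was found in 6 of the 7 windows, against 37.4% of all windows. The window of Acaa1b held it 4 times, with 2 of these on opposite strands and overlapping in CCAATTGG. These matches describe letters in short windows and say nothing about binding, which can also lie further from a gene.

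The arrays carried the genotypes on their labels. Nrg4 gave 2.56, 2.43 and 2.64 in the knockout pools, against 4.94, 4.79 and 4.77 in the wild-type pools. Hepatocyte genes were present in both groups, with Alb, serum albumin, at 12.36 in the knockout and 12.32 in wild type on average, and 4 of 5 kidney and intestine markers with a probe set lay below the limit for dim signal. The 8 members all lay above that limit, a log2 value of 2.66, and the lowest member mean over the 6 arrays was 4.61, so that no member was kept only through the group where it was brighter. No member passed limma's test over all 12466 genes at an adjusted p under 0.05, which 0.0401% of the genes tested did (5 genes, and 17 without knockout replicate 1). Of the 8 members, 6 had a lower and 2 a higher value in the knockout, against 36.6% and 63.4% of all genes tested. The median log2 change of the members was -0.16, and that of all genes tested was 0.04.

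**Figure D1:**
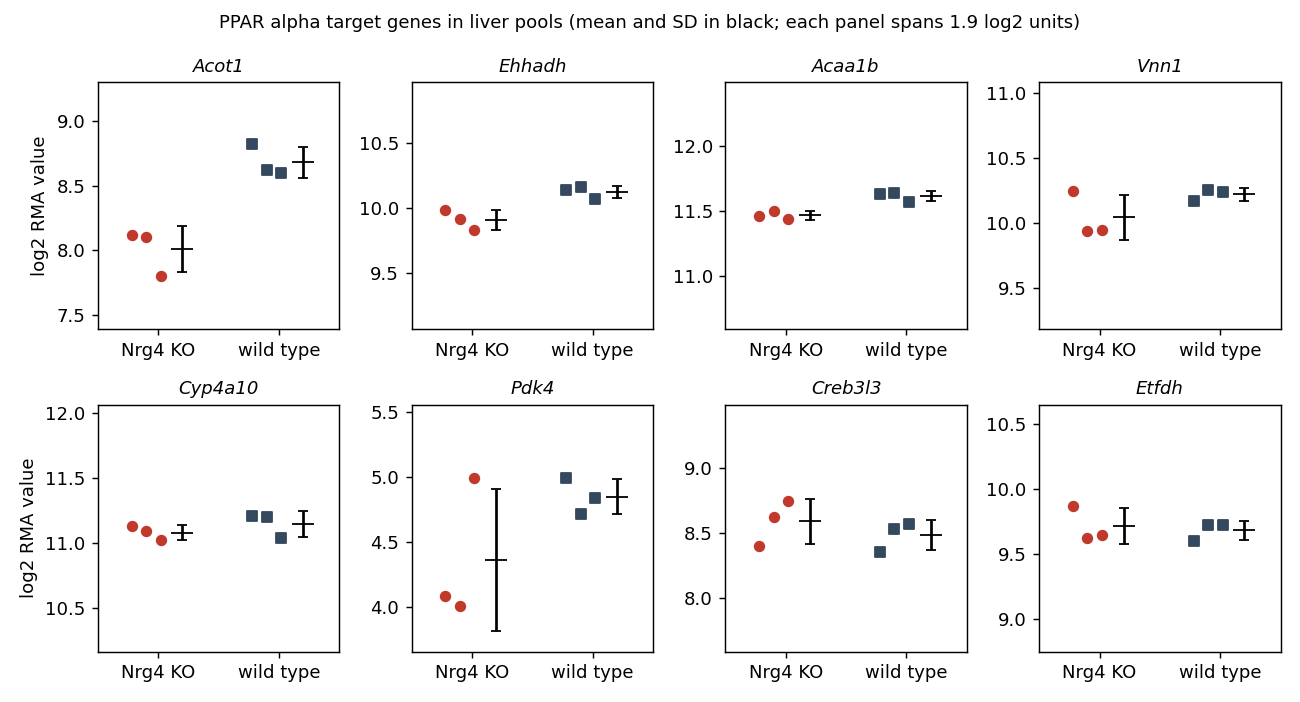
Log2 RMA value (vertical axes, each spanning the same width) of each of the 8 genes in the 3 Nrg4 knockout pools (red circles, left) and the 3 wild-type pools (dark squares, right), with the mean and SD of each genotype in black. The genotypes separate in Acot1, Ehhadh and Acaa1b, and 1 knockout pool of Pdk4 stands with the wild-type pools at 4.99.

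Acot1 (NCBI gene 26897, chromosome 12) encodes a cytosolic thioesterase that splits long-chain acyl-CoA into free fatty acid and coenzyme A, and it is a classic gene of the fasted and fibrate-treated rodent liver. It read 8.12, 8.10 and 7.80 in the knockout pools, against 8.82, 8.62 and 8.60 in the wild-type pools. Every knockout pool lay under every wild-type pool, and the gap between the groups was wider than the range of either. The means were 8.01 ± 0.18 in the knockout and 8.68 ± 0.12 in wild type (SD, n = 3 each), which is a 1.59-fold lower signal. The log2 change was -0.67 (SE 0.11, 95% interval -0.93 to -0.41). It ranked 35 of 12466 genes by p and had a limma adjusted p of 0.11, so it did not pass over all genes at the threshold used. With limma's variance trend the adjusted p was 0.0306, and with array weights 0.0455. Those 2 settings called 29 and 50 genes in all, against 5 in the main fit. In the other 14 of 16 alternatives Acot1 did not pass, with a limma adjusted p of up to 0.382.

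Both peroxisomal members also had values that did not overlap between the genotypes. Ehhadh (NCBI gene 74147, chromosome 16) encodes the bifunctional enzyme that hydrates and then dehydrogenates acyl-CoA chains in the peroxisome. Its values were 9.98, 9.91 and 9.83 in the knockout pools, against 10.13, 10.16 and 10.07 in the wild-type pools. The shift was small: the log2 change was -0.21 (SE 0.09, 95% interval -0.41 to -0.02, limma adjusted p = 0.486). Acaa1b (NCBI gene 235674) encodes a peroxisomal thiolase, which cuts off acetyl-CoA in the last step of that cycle. It lies on chromosome 9, the chromosome of Nrg4, over 30 Mb away. It read 11.46, 11.50 and 11.43 in the knockout pools, against 11.63, 11.64 and 11.57 in the wild-type pools. Here too the groups did not overlap, with a log2 change of -0.15 (SE 0.08, 95% interval -0.33 to 0.03, limma adjusted p = 0.593). In these genes log2 changes of -0.21 and -0.15 (1.16-fold and 1.11-fold lower) were set against SDs of 0.08 log2 units or less within a genotype.

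In all, 3 of 8 members had values that did not overlap between the genotypes with the knockout lower, which was the case for 3.92% of all genes tested, and 0 of 8 did so with the knockout higher, against 11.7% of all genes. At an unadjusted limma p under 0.05, Acot1 and Ehhadh were lower, and 2.18% of all genes were lower by the same measure.

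Cyp4a10 (NCBI gene 13117, chromosome 4) encodes a microsomal cytochrome that hydroxylates the far end of fatty acids and is among the strongest targets of PPAR alpha agonists in mouse liver. It was 11.13, 11.09 and 11.02 in the knockout pools, against 11.21, 11.20 and 11.03 in the wild-type pools. The lowest wild-type pool lay within the knockout range. The log2 change was -0.07 with a 95% interval of -0.27 to 0.14 (limma adjusted p = 0.841), so that a reduction as large as that measured for Acot1 lay outside the interval. The probe set carries the maker's mark for probes that match more than 1 transcript, and Cyp4a10 sits between the related genes Cyp4a14 and Cyp4a31. The signal cannot be assigned to this copy alone.

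Vnn1 (NCBI gene 22361, chromosome 10) encodes vanin, a pantetheinase anchored at the cell surface that breaks down a product of coenzyme A turnover. It gave 10.24, 9.94 and 9.95 in the knockout pools, against 10.16, 10.25 and 10.24 in the wild-type pools. Knockout replicate 1 lay among the wild-type pools, and knockout replicates 2 and 3 lay below all of them. The log2 change was -0.18 (SE 0.11, 95% interval -0.42 to 0.06, limma adjusted p = 0.624), and without knockout replicate 1 it was -0.28 (limma adjusted p = 0.201).

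Pdk4 (NCBI gene 27273, chromosome 6) encodes the kinase that switches off pyruvate dehydrogenase when fat is the fuel. It showed the widest spread between pools of any member. The knockout pools read 4.09, 4.01 and 4.99, against 4.99, 4.72 and 4.84 in the wild-type pools. Knockout replicates 1 and 2 were below all wild-type pools, and knockout replicate 3 was at the level of the highest one. The means were 4.36 ± 0.55 in the knockout and 4.85 ± 0.14 in wild type (SD, n = 3 each), with a log2 change of -0.49 (SE 0.24, 95% interval -1.02 to 0.05, limma adjusted p = 0.55). Without knockout replicate 3 the log2 change was -0.80 (limma adjusted p = 0.201), while without knockout replicate 2 it was -0.31 and without knockout replicate 1 -0.35. A single library thus set much of the size of this value.

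Creb3l3 and Etfdh were the members with a higher value. Creb3l3 (NCBI gene 208677, chromosome 10) encodes CREBH, a transcription factor held in the endoplasmic reticulum membrane until it is cut free, which acts with PPAR alpha on fasting genes. It was 8.40, 8.62 and 8.74 in the knockout pools, against 8.35, 8.53 and 8.57 in the wild-type pools. The ranges overlapped, and the log2 change was 0.11 (SE 0.11, 95% interval -0.15 to 0.37, limma adjusted p = 0.805). Etfdh (NCBI gene 66841, chromosome 3) encodes the oxidoreductase that passes electrons from fatty acid and amino acid breakdown to ubiquinone. It was 9.87, 9.62 and 9.65 in the knockout pools, against 9.60, 9.72 and 9.72 in the wild-type pools. Knockout replicate 1 was the highest and the other knockout pools lay within the wild-type range. Its log2 change of 0.03 (95% interval -0.19 to 0.26, limma adjusted p = 0.937) turned to -0.04 without knockout replicate 1, to -0.01 without wild-type replicate 1 and to -0.02 with array weights.

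**Figure D2:**
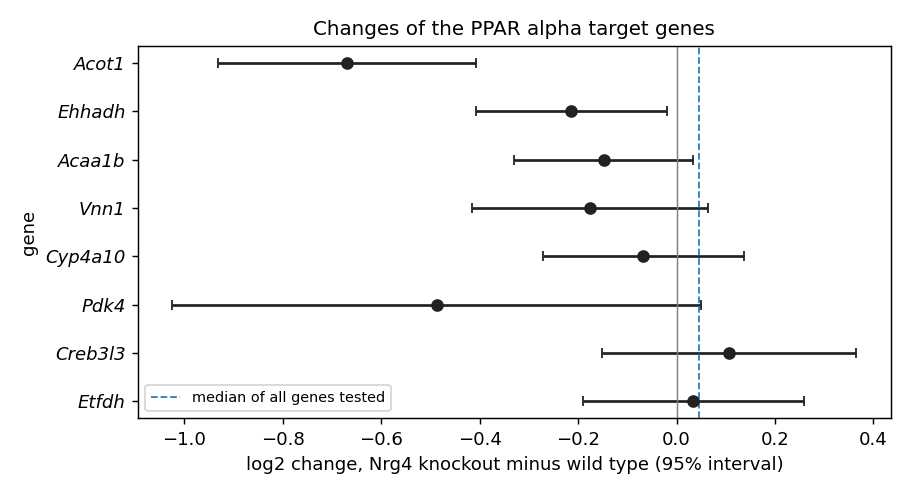
Log2 change of each gene, Nrg4 knockout minus wild type, with its 95% interval from limma (horizontal axis; 3 arrays per genotype), a grey line at 0 and a dashed line at the median of all genes tested, 0.04. The intervals of Acot1 and Ehhadh lie below 0, and those of the other members include it.

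The members differed in how they followed each other across the pools. Over the 6 arrays the Pearson correlation was 0.96 between Acot1 and Ehhadh, 0.95 between Acot1 and Acaa1b and 0.95 between Ehhadh and Acaa1b, all of which rest in part on the separation of the genotypes. With each genotype's mean taken out, these were 0.74, 0.63 and 0.69. Vnn1 and Etfdh followed each other within the genotypes at 0.97, with knockout replicate 1 the highest knockout pool for both. Creb3l3 ran against Acot1 within the genotypes, at -0.86. Of the 28 pairs of members, 14 had a correlation above 0 once the genotype means were removed. These are descriptions over 6 arrays, which share normalization. The member mean after centring each gene on its own mean was -0.09, -0.15 and -0.07 in the knockout pools, against 0.11, 0.11 and 0.08 in the wild-type pools. The 3 other genes with the most similar profile to that mean, among 12458, were Ripply3 with r = 0.99, Esrrg with r = 0.98 and Abhd14b with r = 0.98. Of the 12458 genes, 76 had an r above 0.9 over these few arrays. The member mean itself separated the genotypes. A lower knockout value in Ripply3, Esrrg and Abhd14b therefore follows from the way they were picked and is no separate result. Esrrg, an estrogen-related receptor, read 3.93, 3.54 and 3.95 in the knockout pools, against 4.65, 4.48 and 4.46 in the wild-type pools (log2 change -0.72, limma adjusted p = 0.126).

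Close relatives of Acot1 also had lower signals. In the mouse genome Acot1 stands between Acot2, which encodes the mitochondrial form of the enzyme, and Acot4, and Acot3, a peroxisomal form, belongs to the same cluster. Acot3 was 8.11, 7.66 and 7.98 in the knockout pools, against 8.50, 8.62 and 8.58 in the wild-type pools, a log2 change of -0.65 (SE 0.12, limma adjusted p = 0.145). The brighter probe set of Acot2 was 7.92, 7.93 and 7.85 in the knockout pools, against 8.46, 8.52 and 8.26 in the wild-type pools, a log2 change of -0.51 (SE 0.10, limma adjusted p = 0.143). Neither passed over all genes, and in both the genotypes did not overlap. Both probe sets carry the mark for probes shared between transcripts. The other probe set of Acot2, without that mark, was much dimmer, at 3.33, 3.63 and 3.70 in the knockout pools, against 3.34, 3.77 and 3.59 in the wild-type pools, and its log2 change was -0.02 (SE 0.14). The coding sequences of this cluster are closely related, so that its signals cannot be counted as independent measurements.

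Of 8 acyl-CoA thioesterases tested besides Acot1, with Acot2 and Acot3 among them, 5 were lower and 3 higher, and their median log2 change was -0.05. None passed the test. Acot8, another peroxisomal thioesterase, had a log2 change of -0.08, Acot12, a cytosolic acetyl-CoA hydrolase, of -0.01, and Acot13 of 0.12. Acot5 lay below the limit for dim signal.

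**Figure D3:**
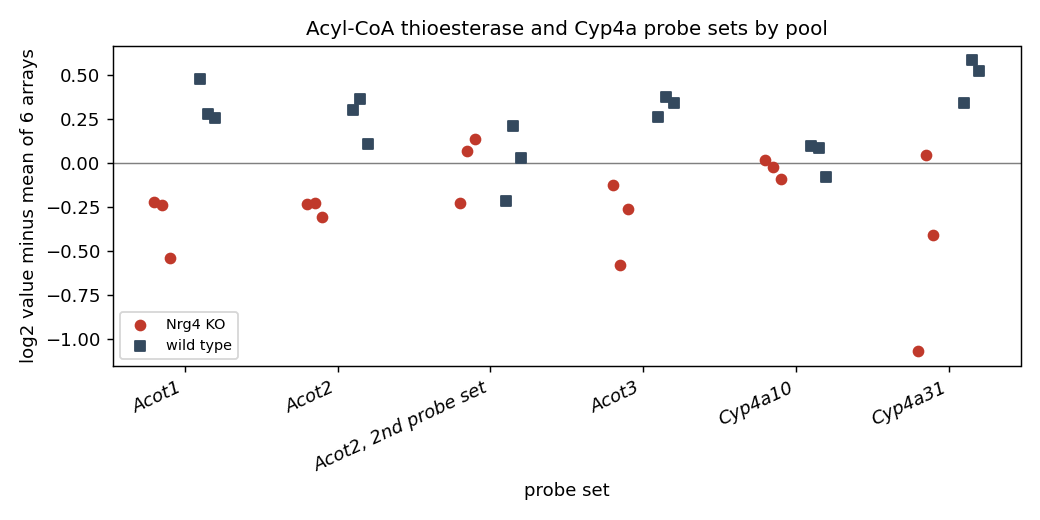
Log2 value minus the mean over all 6 arrays (vertical axis) for the probe sets of Acot1, Acot2, Acot3, Cyp4a10 and Cyp4a31 (horizontal axis), with Nrg4 knockout pools as red circles on the left and wild-type pools as dark squares on the right. The genotypes separate in Acot1, in the brighter probe set of Acot2, in Acot3 and in Cyp4a31, and overlap in the dimmer probe set of Acot2 and in Cyp4a10.

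Cyp4a31, the neighbour of Cyp4a10 and a related cytochrome of the same cluster, was 3.12, 4.24 and 3.78 in the knockout pools, against 4.54, 4.78 and 4.72 in the wild-type pools. The groups did not overlap, and the log2 change was -0.96 (SE 0.24, limma adjusted p = 0.274). Among the 7 other fatty acid omega-hydroxylases tested, 5 had a lower and 2 a higher value, the median log2 change was -0.06 and none passed. Cyp4v3 stood at -0.12 in a probe set with the mark for shared probes and at -0.24 in a dimmer one without it. Aldh3a2, which oxidises fatty aldehydes, stood at -0.08.

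Other peroxisomal genes had small changes in both directions. Of 19 other genes of peroxisomal beta-oxidation and import tested, 13 were lower and 6 higher; their median log2 change was -0.01 and none passed the test. Crat, carnitine acetyltransferase, stood at -0.31 and its dimmer probe set at 0.12, Amacr, a racemase for branched chains, at -0.19 and Acox2, an oxidase of branched chains and bile acid intermediates, at 0.12. Acaa1a, the thiolase most closely related to Acaa1b, read 11.22, 11.24 and 11.22 in the knockout pools, against 11.32, 11.23 and 11.22 in the wild-type pools, with a log2 change of -0.03 (SE 0.08). That probe set carries the mark for probes shared between transcripts. Dimmer probe sets of Acaa1a stood at 0.01, -0.16 and -0.26, so a contrast with Acaa1b depends on the probe set taken. Of 13 peroxisome biogenesis genes, 11 had a higher and 2 a lower value (median 0.05). None passed, with Pex26 at 0.29, Pex2 at 0.18 and Pex16 at 0.13.

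Mitochondrial and other targets of PPAR alpha had a lower value in 15 of 20 genes tested, against 36.6% of all genes tested. Their median log2 change was -0.03, and none passed the test. The genotypes did not overlap in 4 of these 20 genes with the knockout lower and in 1 with the knockout higher. The shares of all genes tested were 3.92% and 11.7%. Txnip, a thioredoxin-binding protein that restrains glucose uptake, stood at -0.50, G0s2, an inhibitor of lipolysis, at -0.42, Slc22a5, the carnitine transporter, at -0.25 and Fgf21, a fasting hormone made by hepatocytes, at -0.51. Fgf21 was 5.22, 6.06 and 6.15 in the knockout pools, against 6.25, 6.40 and 6.31 in the wild-type pools. Knockout replicate 1 was the lowest, and the other knockout pools lay just below the wild-type pools.

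Of 14 receptors and partners of PPAR alpha tested, 8 were higher and 6 lower; their median log2 change was 0.05 and none passed the test. The probe sets of Ppara itself differed in direction, at 0.34, -0.13 and -0.35, so that no direction is given for the receptor's transcript. Pparg stood at 0.51 and Lpin1, a coactivator and phosphatidate phosphatase, at 0.38.

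The lists built around single members were also mixed. Around Pdk4, 8 of 11 genes of pyruvate dehydrogenase control had a higher value (median log2 change 0.09), with Pdk2, another kinase of the complex, at 0.36 and Pdha1, a catalytic subunit, at 0.19 and, in a dimmer probe set, -0.06. The probe sets of Dlat, the acetyltransferase subunit, went both ways, at -0.38, -0.47 and 0.28. Around Vnn1, 4 of 8 genes of coenzyme A and pantetheine metabolism were higher and 4 lower by their brightest probe sets (median 0.01). Vnn3, the neighbour of Vnn1, stood at 0.13, Pank3, a pantothenate kinase, at -0.14 and Coasy, which completes coenzyme A, at 0.22. Dimmer probe sets gave other values in several of these genes: Pank3 at -0.93, Pank1 at -0.61 beside -0.03, Pank2 at -0.53 beside 0.09, Ppcdc at -0.48 and -0.10 beside -0.01, and Coasy at -0.01. The count for this list therefore depends on the probe set taken. Around Etfdh, 7 of 11 genes of electron transfer to ubiquinone were higher and 4 lower (median 0.11), with Coq7 at 0.32, Sdhd at -0.27, Sdhc at 0.18 and Etfa, which hands electrons to the Etfdh product, at -0.02. None of the genes in these lists passed the test.

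Around Creb3l3, 10 of 13 relatives and targets of CREBH had a higher value and 3 a lower one, with a median log2 change of 0.06. Apoa4, an apolipoprotein of triglyceride-rich particles, was the one gene of the related lists that passed. It was 10.67, 10.92 and 11.03 in the knockout pools, against 8.75, 9.22 and 9.31 in the wild-type pools, and rose by a log2 change of 1.78 (SE 0.16, limma adjusted p = 0.0141). The call was lost without knockout replicate 2 (limma adjusted p = 0.0734), knockout replicate 3 (0.108) or wild-type replicate 2 (0.0649), where the log2 change was 1.76, 1.71 and 1.85. Apoa4 shares chromosome 9 with Nrg4, and whether its place near the altered locus bears on its signal was not tested. Apoc2, an activator of lipoprotein lipase, stood at 0.38 (limma adjusted p = 0.239), and Fgf21, counted above as a PPAR alpha target, is also a CREBH target.

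Of 14 genes of the fasting and glucocorticoid response, 9 were higher and 5 lower; their median log2 change was 0.08 and none passed the test. Ddit4, a stress-induced inhibitor of mTORC1, stood at 0.79, Tsc22d3, a glucocorticoid target, at 0.33, and Fgf21, already described, at -0.51. The genotypes did not overlap in 4 genes of this list, with 3 lower in the knockout (Fgf21, Foxo3 and Klf15) and 1 higher (Ddit4). Of all genes tested, 3.92% were lower and 11.7% higher without overlap. The log2 changes of Foxo3 and Klf15 were small, at -0.06 and -0.09. The probe sets of Pck1 and Foxo1 lay below the limit for dim signal on these arrays. Because probes differ in brightness, this gives no level for either transcript.

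**Figure D4:**
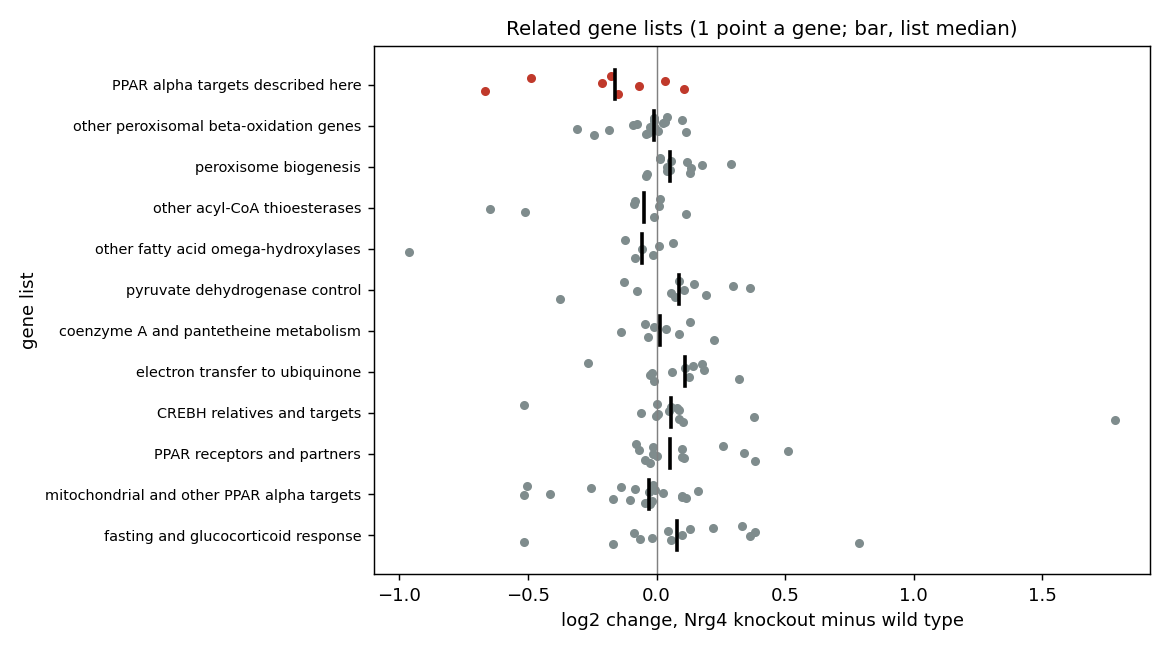
Log2 change, Nrg4 knockout minus wild type (horizontal axis), of every gene tested in the PPAR alpha target set (red) and in 11 related lists (grey), with a black bar at each list's median. The median of the target set lies at -0.16 and those of the related lists between -0.06 and 0.11, and Apoa4 stands apart at 1.78.

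Controls and markers of other cells also differed between the arrays, some with overlap between the genotypes, and their part in the values above was not tested. The 18S ribosomal RNA controls separated the genotypes. The probe set for the 5' end lay at 5.61 to 6.71 in the knockout pools, against 8.12 to 8.80 in the wild-type pools, the one for the middle at 5.74 to 6.59 against 7.92 to 8.14, and the one for the 3' end at 6.67 to 6.89 against 7.45 to 7.73. The 5' signal of Actb and Gapdh less their 3' signal, averaged over both and a gauge of RNA integrity, was -1.31 in knockout replicate 1 and -0.70 and -0.65 in the other knockout pools, against -0.96 to -0.78 in the wild-type pools, which lay inside the knockout range. Markers of macrophages and Kupffer cells had higher values in the knockout in 12 of 12 genes. For sinusoidal endothelium 9 of 10 were higher, and for stellate cells and matrix 9 of 10, against 63.4% of all genes tested. None of these passed, with median log2 changes of 0.34, 0.29 and 0.17 in that order. Of 7 lymphocyte markers tested, 5 were higher and 2 lower (median 0.08), and 2 of 2 cholangiocyte markers tested were higher, none past the test. The mean of the macrophage list, each gene centred on its own mean, ran from -0.27 to 0.49 in the knockout pools and from -0.31 to -0.12 in the wild-type pools, with overlap. For the endothelial list the range was -0.04 to 0.36 in the knockout pools and -0.38 to -0.03 in the wild-type pools, and for stellate cells and matrix 0.06 to 0.23 and -0.18 to -0.02. For hepatocyte markers 6 of 11 were higher, the median was 0.01, and the list mean ran from -0.06 to 0.05 in the knockout pools and from -0.04 to 0.003 in the wild-type pools. Of 6 adipocyte markers with a probe set, Adipoq and Lep lay below the limit for dim signal, and of the 4 tested 2 were higher and 2 lower, none past the test (median 0.17). Among these Fabp4, which macrophages and endothelium also express, stood at 0.39 and Cidea at 0.52. The adipocyte list mean ran from 0.04 to 0.17 in the knockout pools and from -0.20 to -0.02 in the wild-type pools. In whole-liver RNA a smaller share of hepatocytes and less of a transcript per hepatocyte cannot be told apart.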

How the data were processed

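Per the labels, liver RNA (Trizol) was labelled by a 3' IVT method and hybridised to Affymetrix MG-430 PM arrays. The deposited values are log2 RMA values made by the authors; affy and limma also stand in the submitters' processing notes, and no version or genome build is given there. RMA normalizes by quantiles, which reduces any shift shared by most genes.

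For each gene the probe set of highest mean signal was taken. A limit for dim signal at the 40th percentile of all probe set means, 2.66, left 12466 of 17097 genes. Genotypes were compared with limma 3.58.1 in R 4.3.3 (lmFit and eBayes, two-sided), adjusting by Benjamini-Hochberg across those genes and calling an adjusted p under 0.05. The fit was tested on 10 simulated draws with the spread of the real genes, each with 200 of 12466 genes changed. It called 39.3% of the changes of log2 0.5 and 88.8% of those of log2 1, and 4.84% of its calls were false. The draws gave each gene independent normal noise, and the number of genes truly changed in the real arrays, where 5 passed, is not known. With fewer genes changed the adjustment is stricter, so the shares found may be too high for the real arrays. A change of log2 0.5 or less can therefore often fail to pass with these arrays. For a single value, 3 against 3 arrays allow no exact permutation p below 0.1, and the number of arrays limits the precision. The members and related lists were chosen with earlier results of these data known, so no list was tested. Named genes are all members, the 3 of each related list with the smallest p, any list gene that passed and the 3 with the most similar profile; Alb, Acaa1a, Acot8, Acot12, Etfa, Fgf21 in its target list, Foxo3, Klf15, dim genes and further probe sets were added after values were seen. Alternatives covered normalization, the dim limit, the prior, array weights, probe set choice, leaving out each array and the replicate number as a block. Gene order and promoter windows come from RefSeq (GRCm38.p6).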

Additional observations from a re-analysis of the deposited data

How the results depend on the processing

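Of 128 values for single members under 16 alternatives, 123 kept their direction and their side of the threshold. This count includes alternatives in which the direction could not change. A different dim limit, prior, replicate block or probe set choice leaves a member's log2 change as it was, because each member had 1 probe set. In these only the adjusted p could move. Acot1 passed with a variance trend (log2 change -0.67, limma adjusted p = 0.0306) and with array weights (-0.68, limma adjusted p = 0.0455). Over all 16 its log2 change lay between -0.72 and -0.57 and its adjusted p between 0.0306 and 0.382. Etfdh, at 0.03, turned to -0.021 with array weights, and ran from -0.045 without knockout replicate 1 to 0.079 without knockout replicate 2, with -0.0074 without wild-type replicate 1; the cause was not tested. The median of the members was -0.20 with array weights and between -0.20 and -0.13 when each array was left out. The number of members without overlap, in either direction, was then between 3 and 5. Acot1, Ehhadh and Acaa1b were among them each time. Without knockout replicate 1 they were joined by Vnn1, lower in the knockout, and Creb3l3, higher in the knockout. Pdk4 joined without knockout replicate 3 and Cyp4a10 without wild-type replicate 3, both lower in the knockout. Fewer arrays leave less room for overlap in any gene. The shares of all genes without overlap, 3.92% lower and 11.7% higher, hold for all 6 arrays and cannot be set beside these counts. The number with a lower value was 6 or 7.

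The number of genes called, 5 of 12466, was 8 after quantile normalization again, 3 with the filter at the 60th percentile or with the mean of all probe sets, 29 with a variance trend, 50 with array weights and 1 to 17 when each array was left out, the highest without knockout replicate 1. It was 30 at an adjusted p under 0.10 and 1190 at an unadjusted p under 0.05. The labels state no pairing of pools by replicate number. Deviations of same-numbered pools from their genotype means correlated at -0.15, 0.03 and -0.01, and knockout replicate 1 correlated best with wild-type replicate 3. Such deviations cancel within each genotype of 3 arrays, so these correlations cannot decide whether the pools were paired. With the replicate number as a block 2 genes were called, and no member changed its call. The widest 95% interval among the members, that of Pdk4, reached 0.54 to either side of its value.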
